A study of Mus musculus with 30 samples.

Results

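Messenger RNA of 28 genes that make, sense, move or store cholesterol was followed through whole ovaries of adult female CD1 mice dosed with a phthalate. The 28 genes were taken by name from the known pathway, out of 18022 genes in the deposited table. The rule itself used no measured value, but the list was drawn up with earlier results of these data known. They comprise 8 enzymes from acetoacetyl-CoA to squalene, 10 enzymes from squalene to cholesterol, 4 genes of sterol sensing, 5 of uptake, transport and efflux, and the esterifying enzyme Soat1. All 28 passed the filter on low values (a mean above 0 log2 CPM, a log2 scale of counts relative to the library's total), as did 14740 genes in all. Every sample is an ovary library of the CD1 stock, and the agents are di(2-ethylhexyl) phthalate (DEHP) and diisononyl phthalate (DiNP), plasticizers that were given for 10 days. The treated groups received DEHP at 20 or 200 ug/kg/day or DiNP at 20 or 100 ug/kg/day, here called DEHP 20, DEHP 200, DiNP 20 and DiNP 100, and the remaining group at each time received vehicle. Ovaries were taken 3 months after dosing or straight after it (0 months), which makes 10 groups of 3 libraries. The labels give the mice as adult and do not say whether each library is a separate animal, so the p-values here reflect no more than the scatter among these libraries, which may be technical.

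Cells build cholesterol from acetyl-CoA through mevalonate, squalene and a series of sterols. When membrane sterol falls, SCAP escorts the precursor of the transcription factor SREBP-2 (gene Srebf2) out of the endoplasmic reticulum for cleavage, and the freed factor switches on the synthesis genes together, while the INSIG proteins hold SCAP back when sterol is plentiful. In the ovary, theca and luteal cells turn cholesterol into steroid hormones, and rodent luteal cells draw much of it from high-density lipoprotein through the receptor SR-BI, encoded by Scarb1.

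Upstream sequence is shown for genes of this set because SREBP-2 is known to act beside the factors that bind CCAAT and GC boxes. RefSeq promoter windows of GRCm38.p6, from 250 bases before to 50 after a start site, were found for 22 of the 28 members, in 28 windows. The letters CCAAT, read on both strands, stood in 19 of the 28 windows (67.9%), against 37.4% of all 32851 windows, and 11 of the 28 held more than 1, against 11.7% of all windows. The GC box GGGCGG stood in 24 of 28 (85.7%), against 35.7% of all windows. The sterol regulatory element in the form TCACNCCAC stood in 1 window, that of Hmgcs1, and in 1.24% of all windows. None of these motifs contains another, base composition was not matched between the sets of windows, and a match is a description of letters only. The stretches below, read 5′ to 3′ on the gene's strand and ending at or just before the start site, belong to Hmgcs1 (chr13:119690151-119690350, plus strand), Mvk (chr5:114444079-114444263, plus), Msmo1 (chr8:64733579-64733758, minus), Ebp (chrX:8193513-8193692, minus), Nsdhl (chrX:72918391-72918520, plus) and Srebf2 (chr15:82147119-82147268, plus). Capitals mark CCAAT, its reverse complement ATTGG and, in Hmgcs1, the sterol regulatory element TCACCCCAC.
Hmgcs1: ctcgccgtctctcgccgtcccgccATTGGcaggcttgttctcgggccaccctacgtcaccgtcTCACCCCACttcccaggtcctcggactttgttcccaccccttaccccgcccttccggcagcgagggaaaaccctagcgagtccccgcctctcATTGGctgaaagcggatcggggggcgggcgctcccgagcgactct
Mvk: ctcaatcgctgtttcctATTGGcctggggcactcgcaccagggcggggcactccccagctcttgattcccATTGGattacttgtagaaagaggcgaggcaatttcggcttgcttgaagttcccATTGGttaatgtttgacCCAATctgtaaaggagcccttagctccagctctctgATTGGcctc
Msmo1: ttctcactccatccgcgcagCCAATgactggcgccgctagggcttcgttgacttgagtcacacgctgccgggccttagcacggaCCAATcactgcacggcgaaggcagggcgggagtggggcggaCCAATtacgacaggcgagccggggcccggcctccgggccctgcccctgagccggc
Ebp: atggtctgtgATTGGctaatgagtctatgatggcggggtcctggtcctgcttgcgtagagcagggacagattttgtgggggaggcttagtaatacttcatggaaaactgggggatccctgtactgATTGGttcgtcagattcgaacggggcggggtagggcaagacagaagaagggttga
Nsdhl: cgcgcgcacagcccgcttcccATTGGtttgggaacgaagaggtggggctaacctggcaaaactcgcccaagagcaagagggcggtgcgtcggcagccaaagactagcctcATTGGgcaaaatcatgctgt
Srebf2: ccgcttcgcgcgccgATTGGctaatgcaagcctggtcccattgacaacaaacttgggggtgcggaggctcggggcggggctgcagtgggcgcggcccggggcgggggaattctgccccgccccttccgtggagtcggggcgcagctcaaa
Mvk carried CCAAT 5 times in 185 bases and Msmo1 3 times in 180 bases. No window was found for Fdps, Fdft1, Sqle, Scarb1, Npc1 and Stard4.

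The libraries held approximately 24.7 to 41.4 M reads, as judged from the steps between low values (median 30.1 M), and the correlation over genes between libraries within a group ran from 0.908 to 0.98. Markers of the ovary were present throughout: mean levels over the marker lists ran from 7.09 to 8.59 log2 CPM for granulosa cells and from 3.44 to 5.42 for oocytes. DEHP 200 at 0 months replicate 3 stood apart, with a mean of 4.96 log2 CPM over 10 luteal cell markers, against 9.26 in replicate 2 and 7.75 in replicate 1 of its group. The same library had the highest mean over 7 adipocyte markers, 4.78 log2 CPM, where the median library at 0 months had 1.28. Both means include markers below the filter on low values. In a whole ovary, fewer cells of a type and less RNA per cell cannot be told apart.

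Scaled to the length of their exons, levels spanned a wide range. Scarb1 was the most abundant member, with a median over 30 libraries of 649 CPM per kilobase. Fdps, which makes farnesyl diphosphate, followed at 229, then Hmgcs1, the synthase that makes HMG-CoA, at 205 and Msmo1, a sterol C4 methyl oxidase, at 145. The kinases Mvk and Pmvk, which phosphorylate mevalonate, were the lowest, at 13.2 each, just under Insig2 at 14.6. Of the genes that were not enzymes of synthesis, Soat1, which esterifies cholesterol for storage, stood at 92.5 and Npc2, which carries cholesterol out of lysosomes, at 87.8. Abca1, which exports cholesterol to apolipoprotein particles, stood at 32.3, and Npc1, the membrane partner of Npc2, at 22.5.

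**Figure D1:**
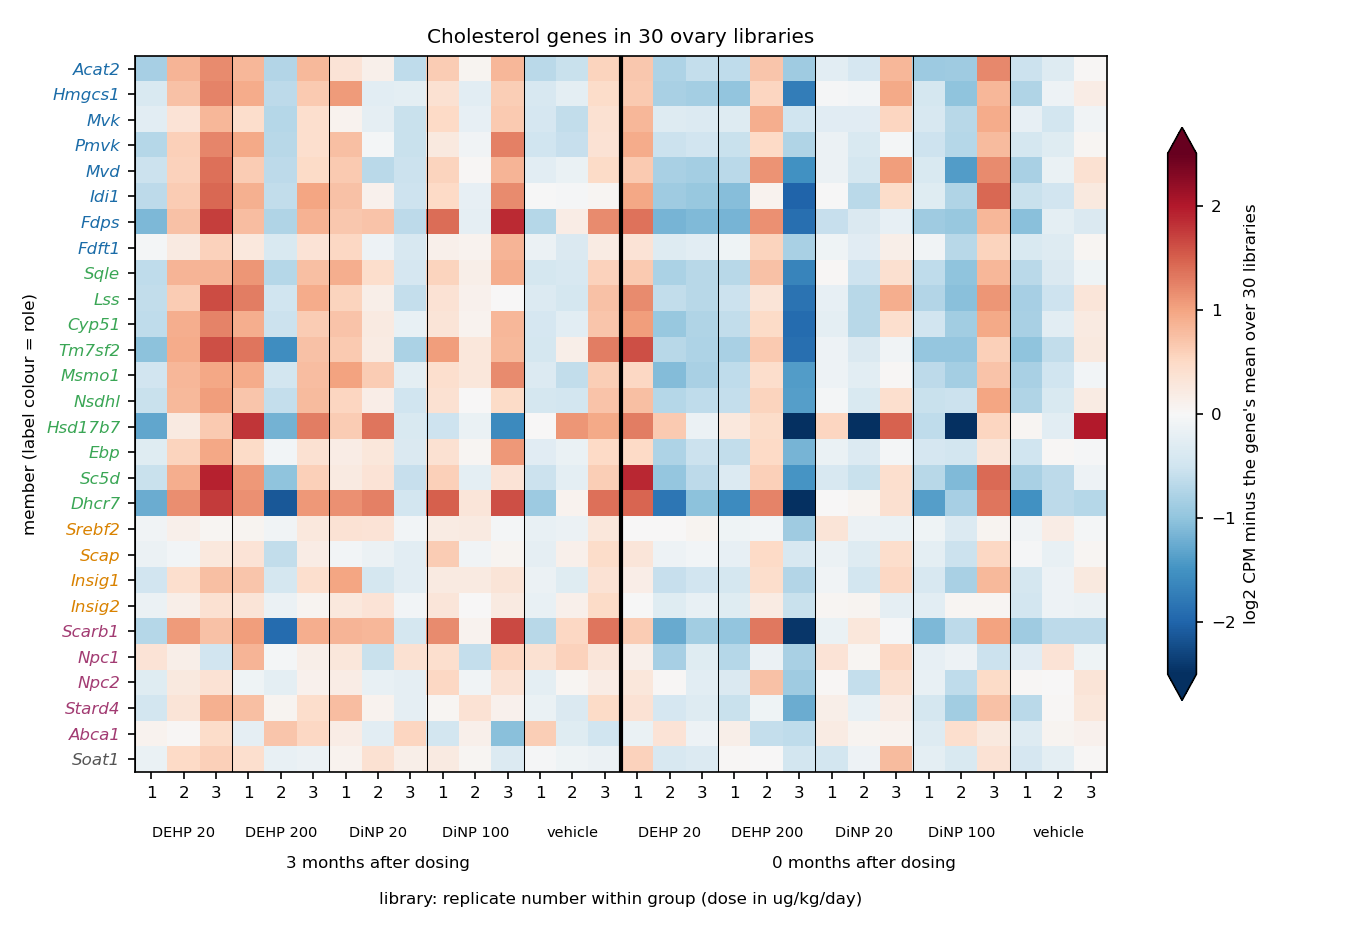
Each row is 1 of the 28 members and each column 1 library, with 3 libraries per group, and the colour is log2 CPM minus that gene's mean over the 30 libraries, cut off at both ends of the scale. The rows of the synthesis enzymes change colour together from library to library within groups, and 22 of 28 members are lowest in DEHP 200 at 0 months replicate 3.

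The members differed more between libraries of 1 group than most genes did. The median SD within groups was 0.70 log2 over the 28 members and 0.25 log2 over the 14740 genes tested, and 26 of 28 members lay above that value for all genes (Srebf2 and Insig2 did not). Hsd17b7 varied most, from 5.12 log2 CPM in DEHP 200 at 0 months replicate 3 to 11.06 in a vehicle library of the same time. This gene encodes a ketosteroid reductase of cholesterol synthesis that also converts estrone to estradiol in the rodent corpus luteum. Dhcr7, which makes cholesterol from its last precursor in one branch of the pathway, spanned 4.46 log2 units and Scarb1 spanned 4.08. The smallest spans were those of Insig2 at 1.04 log2 units, Scap at 1.24, Soat1 at 1.25 and Srebf2 at 1.26. The lowest library was DEHP 200 at 0 months replicate 3 for 22 members, while the highest was DEHP 20 at 3 months replicate 3 for 9 members and DiNP 100 at 3 months replicate 3 for 6.

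**Figure D2:**
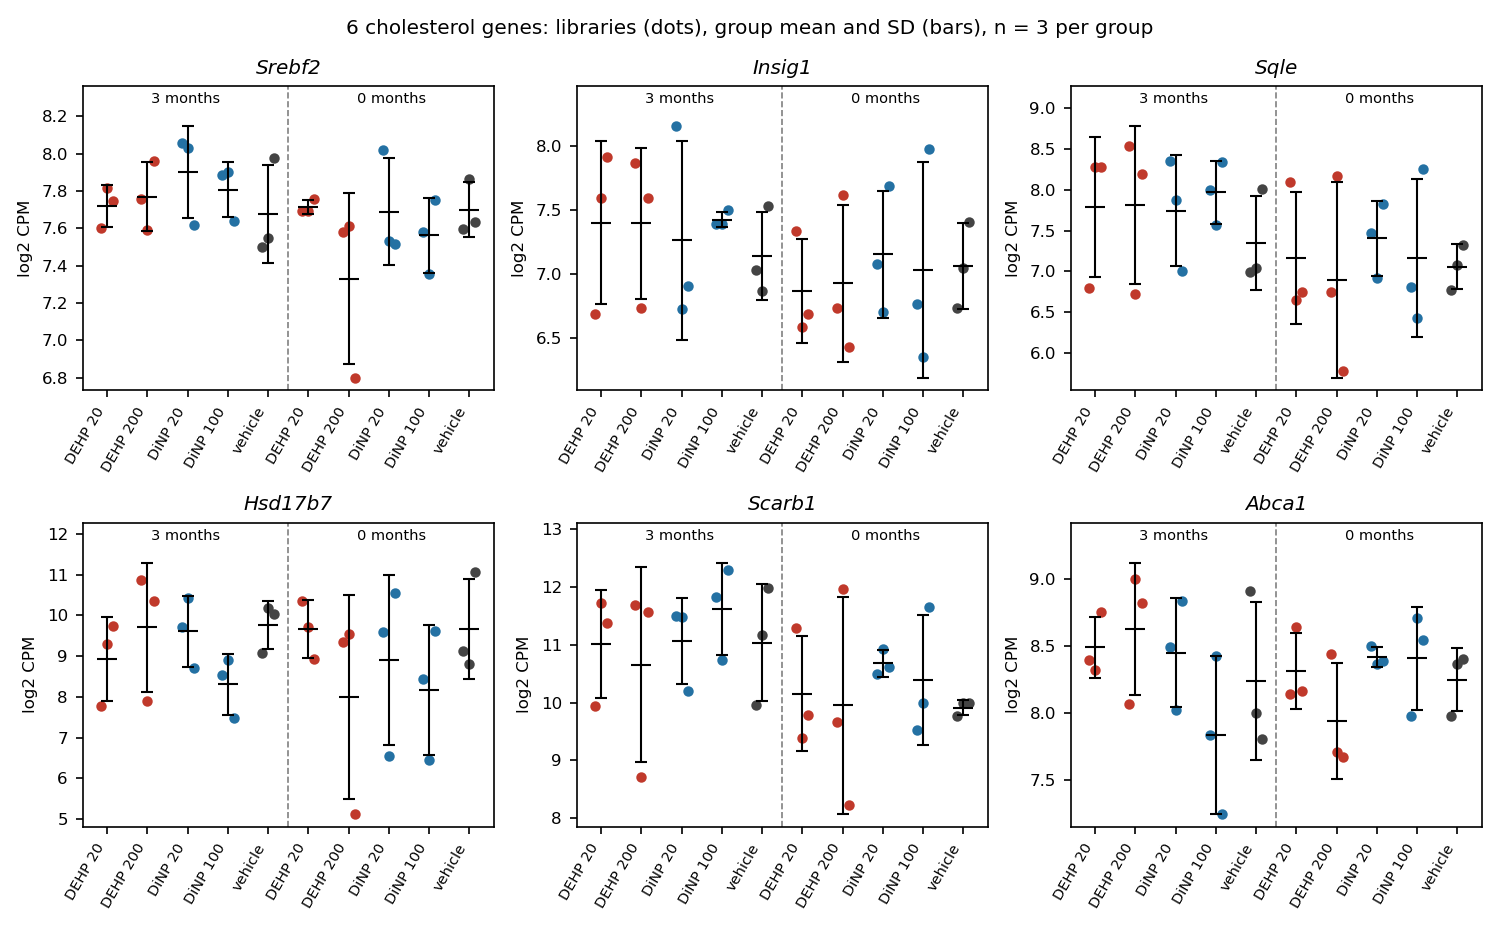
The panels plot log2 CPM of Srebf2, Insig1, Sqle, Hsd17b7, Scarb1 and Abca1, with dots for libraries and black bars for the group mean and SD (n = 3). Srebf2 stays between 6.80 and 8.06 log2 CPM, whereas libraries of a single group differ by several log2 units in Scarb1 and Hsd17b7.

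Srebf2, the gene of the pathway's transcription factor, was even across the groups but for 1 library. At 3 months it stood at 7.60, 7.82 and 7.74 log2 CPM with DEHP 20, 7.75, 7.59 and 7.96 with DEHP 200, 8.06, 8.03 and 7.62 with DiNP 20, 7.88, 7.90 and 7.64 with DiNP 100, and 7.50, 7.55 and 7.98 with vehicle. At 0 months it stood at 7.69, 7.69 and 7.75 with DEHP 20, 7.58, 7.61 and 6.80 with DEHP 200, 8.02, 7.53 and 7.51 with DiNP 20, 7.58, 7.35 and 7.75 with DiNP 100, and 7.60, 7.87 and 7.63 with vehicle. The value of 6.80 belongs to the library that stood apart, and the remaining 29 libraries lay within 1 log2 unit of each other.

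Sqle, the squalene epoxidase that is one of the pathway's regulated steps, split within most groups. At 3 months it stood at 6.80, 8.28 and 8.28 log2 CPM with DEHP 20, 8.53, 6.72 and 8.20 with DEHP 200, 8.35, 7.87 and 7.01 with DiNP 20, 7.998, 7.57 and 8.34 with DiNP 100, and 6.99, 7.04 and 8.01 with vehicle. At 0 months it stood at 8.09, 6.65 and 6.74 with DEHP 20, 6.74, 8.17 and 5.78 with DEHP 200, 7.47, 6.92 and 7.83 with DiNP 20, 6.81, 6.43 and 8.26 with DiNP 100, and 6.77, 7.08 and 7.33 with vehicle. Each treated group overlapped the vehicle group of its time. Insig1, itself a known target of SREBP-2 that restrains SCAP, stood at 6.69, 7.60 and 7.91 log2 CPM with DEHP 20 at 3 months, 7.86, 6.73 and 7.59 with DEHP 200, 8.15, 6.73 and 6.91 with DiNP 20, 7.39, 7.39 and 7.50 with DiNP 100, and 7.03, 6.87 and 7.53 with vehicle. At 0 months Insig1 stood at 7.33, 6.58 and 6.69 with DEHP 20, 6.73, 7.61 and 6.43 with DEHP 200, 7.08, 6.70 and 7.68 with DiNP 20, 6.77, 6.35 and 7.98 with DiNP 100, and 6.73, 7.04 and 7.40 with vehicle. Insig1 also overlapped vehicle in each treated group, and libraries high for Sqle within a group tended to be high for Insig1.

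Scarb1, the lipoprotein receptor, stood at 9.94, 11.72 and 11.38 log2 CPM with DEHP 20 at 3 months, 11.69, 8.72 and 11.56 with DEHP 200, 11.51, 11.48 and 10.20 with DiNP 20, 11.82, 10.74 and 12.30 with DiNP 100, and 9.96, 11.17 and 11.98 with vehicle. At 0 months it stood at 11.29, 9.39 and 9.79 with DEHP 20, 9.67, 11.96 and 8.23 with DEHP 200, 10.49, 10.93 and 10.61 with DiNP 20, 9.52, 10.00 and 11.66 with DiNP 100, and 9.77, 9.99 and 9.99 with vehicle. The 3 DiNP 20 libraries at 0 months all lay above the 3 vehicle libraries.

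**Figure D3:**
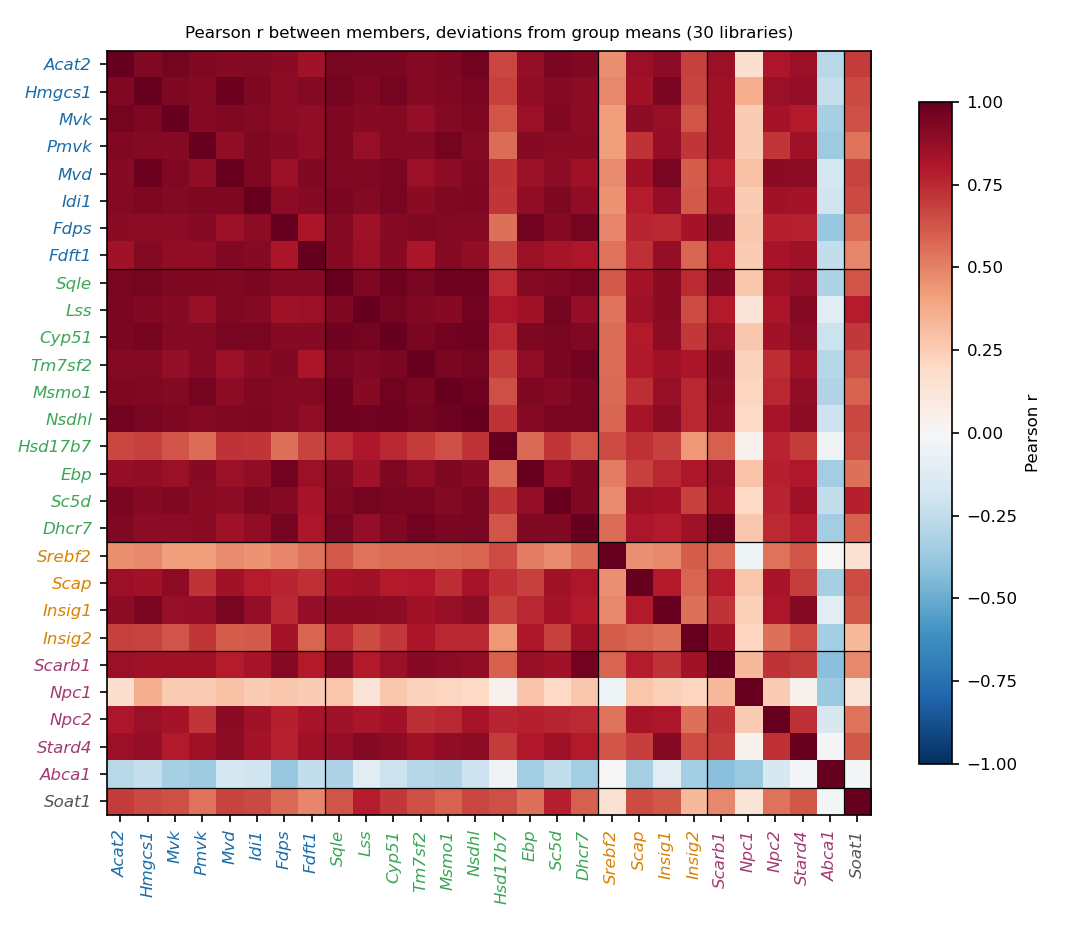
Colours give Pearson's r between each pair of the 28 members over 30 libraries, after subtraction of each gene's group mean. The synthesis enzymes form a dark block in which the 136 pairs without Hsd17b7 lie between 0.81 and 0.98, and the row of Abca1 is pale blue throughout.

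Within groups the enzymes of synthesis moved together from library to library. After subtraction of group means, the 378 pairs of members had a median Pearson's r of 0.83 over the 30 libraries and a median Spearman's rho of 0.83, and 252 pairs exceeded 0.7. For comparison, members paired with all genes tested had a median r of -0.03, and 5.15% of those pairs exceeded 0.7. The libraries share their depth and cell makeup between genes, so these values are a description with no p. Among the 17 enzymes other than Hsd17b7, all 136 pairs exceeded 0.7, and Hmgcs1 with Mvd, the mevalonate diphosphate decarboxylase, was the closest pair at 0.98. Without the 3 libraries of DEHP 200 at 0 months, the median over the 378 pairs was 0.80, and all 136 enzyme pairs still exceeded 0.7, down to 0.75. Hsd17b7 followed the rest less closely, with a median r of 0.67 with the other members, and so did Srebf2 with 0.51. Npc1 had a median of 0.25, and Abca1 was negative with each of the other 27 members, lowest with Scarb1 at -0.42.

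Neighbouring pathways followed the enzymes to differing degrees. With the mean of the 18 enzymes, 11 of 12 genes of fatty acid synthesis correlated positively (median r 0.78). Acly, which supplies cytosolic acetyl-CoA, reached 0.96 and Acss2, which makes acetyl-CoA from acetate, 0.95. Of 13 genes of the oxysterol receptor pathway and sterol export, 7 were positive (median 0.20), and Osbpl5, an oxysterol-binding family member, stood at -0.89. Of 9 genes of lipoprotein receptors and handling 2 were positive (median -0.29), with the fatty acid and lipoprotein scavenger receptor Cd36 lowest at -0.70. All 9 luteal markers were positive (median 0.81), all 4 endothelial markers were positive (median 0.61), and all 10 oocyte markers were negative (median -0.67). The 6 theca markers (median -0.46), 4 smooth muscle markers (-0.38) and 5 adipocyte markers (-0.32) were also all negative. Of 10 granulosa markers 2 were positive (-0.30), of 8 macrophage markers 7 (0.13), and of 4 oviduct markers 2 (0.02). The part of luteal, oocyte and other cell content in the members' shared pattern was not tested beyond these values.

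Cyp11a1, the side-chain cleavage enzyme with which steroid synthesis from cholesterol begins, was set against each member on the same deviations, again as a description with no p, since the libraries share cell makeup and Cyp11a1 is itself one of the luteal markers. The 28 members had a median r of 0.73 with it and 25 exceeded 0.5, where all genes tested had a median of -0.02 and 20.1% exceeded 0.5. Scarb1 was the closest member, with r = 0.88 and rho = 0.88. Its r was 0.91 without the 2 libraries farthest from the median of Cyp11a1, which were DEHP 200 at 0 months replicates 2 and 3, 0.97 within the 15 libraries of 3 months and 0.905 within the 15 of 0 months. Sqle had r = 0.81 and rho = 0.84, and r = 0.82 without the same 2 libraries. The members at or below 0.5 were Soat1 (r = 0.36, rho = 0.39), Npc1 (r = 0.36, rho = 0.39) and Abca1 (r = -0.24, rho = -0.35). For Abca1 r was -0.77 within 3 months and 0.11 within 0 months.

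**Figure D4:**
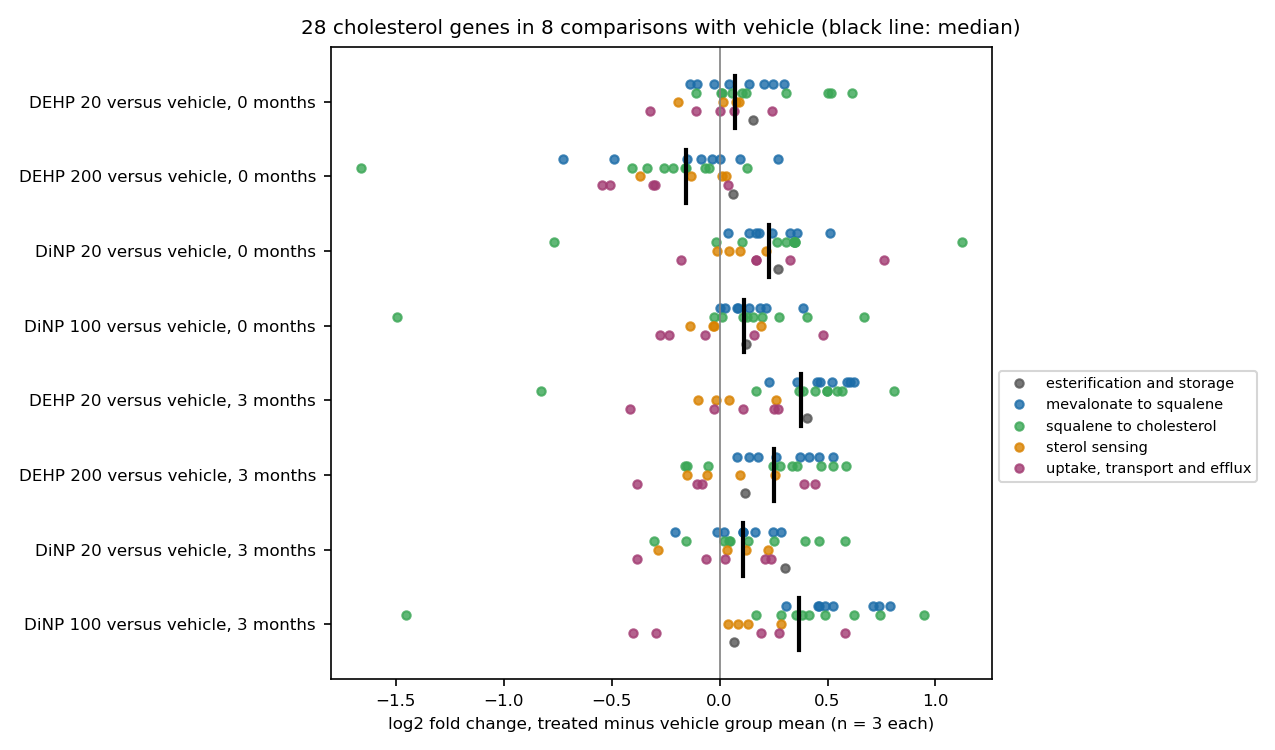
Each dot is the log2 fold change of 1 member, treated minus vehicle group mean (n = 3 each), coloured by role, and the black line is the median of the 28. The medians run from -0.15 with DEHP 200 at 0 months to 0.38 with DEHP 20 at 3 months, no dot passed the test, and the dots farthest to the left, at -1.66 with DEHP 200 at 0 months and -1.49 and -1.45 with DiNP 100, are Hsd17b7.

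Whether dosing changed these genes was asked in 8 comparisons with vehicle, in limma over all 14740 genes with Benjamini-Hochberg adjustment. None of the 28 members passed an adjusted p of 0.05 in any of the 8, nor did any other gene (0% called in each). At an unadjusted p under 0.05 the count was also 0 of 28 in each. Over all genes tested that unadjusted share at 0 months was 2.37% for DEHP 20, 5.02% for DEHP 200, 2.08% for DiNP 20 and 1.75% for DiNP 100. At 3 months it was 1.68%, 1.44%, 1.52% and 9.28% for the same treatments in the same order. The test over any of the 4 treatments found 0 of 28 members at 0 months and 0 of 28 at 3 months (0% of all genes, and at unadjusted p under 0.05 also 0 members, against 2.2% and 3.99% of all genes). The 4 comparisons of a time point share their 3 vehicle libraries, so they are given side by side and not counted as repeats.

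Straight after dosing, the members' median log2 fold change was 0.07 with DEHP 20 (21 of 28 members higher), -0.15 with DEHP 200 (8 higher), 0.23 with DiNP 20 (24 higher) and 0.11 with DiNP 100 (20 higher). The median over all tested genes was between -0.00 and 0.01 in each. The DEHP 200 value depended on single libraries, since its median was 0.22 without replicate 3, -0.73 without replicate 2, -0.06 without replicate 1, 0.05 without vehicle replicate 3 and -0.34 without vehicle replicate 1. The DEHP 20 median was -0.33 without replicate 1, 0.30 and 0.26 without replicates 2 and 3, 0.23 without vehicle replicate 3 and -0.05 without vehicle replicate 1. The DiNP 20 median was 0.03 without its replicate 3, 0.37 without its replicate 2, 0.06 without vehicle replicate 1 and 0.36 without vehicle replicate 3. The DiNP 100 median was -0.35 without its replicate 3, 0.28 and 0.43 without its replicates 1 and 2, -0.03 without vehicle replicate 1 and 0.24 without vehicle replicate 3. Each of the 4 medians thus turned its sign or moved by a large part when 1 library was left out. Members share most of their variation, so these counts are not 28 separate observations.

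Among single members at 0 months, Srebf2 with DEHP 200 had the smallest p of the 4 comparisons, at 7.58, 7.61 and 6.80 log2 CPM with DEHP 200 and 7.60, 7.87 and 7.63 with vehicle. The difference was -0.37 ± 0.19 (SE, 95% interval -0.75 to 0.02, limma adjusted p = 0.914), and -0.10 without replicate 3. The member farthest from vehicle was Hsd17b7, at 9.34, 9.54 and 5.12 log2 CPM with DEHP 200 and 9.12, 8.81 and 11.06 with vehicle, a difference of -1.66 ± 1.09 (95% interval -3.92 to 0.60) in overlapping groups. Mvk, mevalonate kinase, had the smallest p among those higher with DEHP 200, at 4.60, 5.83 and 4.43 log2 CPM with DEHP 200 and 4.73, 4.47 and 4.84 with vehicle, a difference of 0.27 ± 0.45 that was -0.17 without replicate 2. With DEHP 20 the members named by the same rule were Npc1, at 6.91, 5.96 and 6.48 log2 CPM with DEHP 20 and 6.51, 7.13 and 6.68 with vehicle (-0.32 ± 0.31), and the sterol desaturase Sc5d. Sc5d stood at 9.45, 6.59 and 6.92 log2 CPM with DEHP 20 and 6.75, 6.92 and 7.45 with vehicle. Its difference of 0.61 ± 0.74 was carried by replicate 1 and turned to -0.28 without it.

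With DiNP at 0 months, Insig2, a relative of Insig1, stood at 5.46, 5.48 and 5.19 log2 CPM with DiNP 20, 5.15, 5.46 and 5.45 with DiNP 100, and 4.94, 5.28 and 5.26 with vehicle. The differences were 0.22 ± 0.19 with DiNP 20 and 0.19 ± 0.19 with DiNP 100, and the groups overlapped. Hsd17b7 stood at 9.60, 6.55 and 10.54 with DiNP 20, 8.44, 6.46 and 9.61 with DiNP 100, and 9.12, 8.81 and 11.06 with vehicle, with differences of -0.77 ± 1.09 and -1.49 ± 1.09 in that order. In both DiNP groups replicate 2 was the lowest by a wide margin, and the DiNP 20 difference was 0.41 without it. Dhcr7 and Scarb1 were the members whose DiNP 20 libraries all exceeded the vehicle libraries, which 5.06% of all tested genes also did. Dhcr7 stood at 8.30, 8.35 and 8.69 log2 CPM with DiNP 20 and 6.78, 7.63 and 7.57 with vehicle, a difference of 1.12 ± 1.03 (95% interval -1.01 to 3.25), and that of Scarb1 was 0.76 ± 0.84. No member lay wholly below vehicle with DiNP 20 (4.67% of all genes did). Every member's groups overlapped in the other 3 comparisons at this time. There the shares of all genes wholly above and wholly below vehicle were 4.6% and 4.8% for DEHP 20, 3.6% and 4.25% for DEHP 200, and 4.05% and 4.26% for DiNP 100.

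At 3 months the members' median log2 fold change was 0.38 with DEHP 20 (23 of 28 members higher), 0.25 with DEHP 200 (20 higher), 0.11 with DiNP 20 (21 higher) and 0.37 with DiNP 100 (25 higher). The median over all tested genes was between -0.01 and 0.01 in each, with 47.1% to 51.5% of them higher. As at 0 months, the members vary together and the comparisons share their vehicle libraries, so these counts are not separate observations. The DEHP 20 median was 0.03 without replicate 3, 0.87 without replicate 1 and 0.64 without vehicle replicate 3. The DEHP 200 median was 0.63 without its replicate 2, 0.06 and 0.10 without its replicates 1 and 3, 0.14 without vehicle replicate 1 or 2 and 0.45 without vehicle replicate 3. For DiNP 20 the median turned to -0.13 without its replicate 1 and to -0.07 without vehicle replicate 1, and was 0.35 without its replicate 3 or vehicle replicate 3, and 0.02 without vehicle replicate 2. For DiNP 100 it stayed above 0, from 0.16 without vehicle replicate 1 to 0.62 without vehicle replicate 3, with 0.57 without its replicate 2 and 0.23 without its replicate 3. All 4 markers of oviduct epithelium had higher means with DEHP 20 (median log2 fold change 2.09, list means 2.44 to 4.23 log2 CPM). They were also higher with DEHP 200 (median 1.44, 2.08 to 3.86), against list means of 0.89 to 1.68 with vehicle. In limma 0 of 4 passed in either comparison. At unadjusted p under 0.05 there were 2 with DEHP 20 and 1 with DEHP 200, against 1.68% and 1.44% of all genes. The part of these markers in the members' differences was not tested. As a mean over the 28 members, the DEHP 20 libraries ran from 6.82 to 8.25 log2 CPM, the DiNP 100 libraries from 7.33 to 7.87 and the vehicle libraries from 7.02 to 7.85. The vehicle range thus lay wholly inside that of DEHP 20 and overlapped that of DiNP 100. With array weights, which let limma give less weight to libraries that fit their group poorly, 7 members passed for DEHP 20, 8 for DEHP 200, 2 for DiNP 20 and 0 for DiNP 100, where 12.1%, 10.0%, 5.35% and 0% of all genes passed in the same order. The weights ran from 0.0049 (DiNP 100 replicate 1) to 35.1 (vehicle replicate 2), and that fit stopped before its convergence tolerance. Vehicle replicates 1 and 3 had weights of 0.64 and 0.59, so these counts rest largely on vehicle replicate 2.

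Among single members at 3 months, Msmo1 with DiNP 100 had the smallest p, at 8.73, 8.60 and 9.50 log2 CPM with DiNP 100 and 7.98, 7.70 and 8.93 with vehicle. The difference was 0.74 ± 0.53 (95% interval -0.35 to 1.84, limma adjusted p = 0.576). Hsd17b7 stood at 8.55, 8.91 and 7.47 with DiNP 100 and 9.08, 10.18 and 10.02 with vehicle, so the groups did not overlap, as for 3.05% of all tested genes in that direction, and the difference was -1.45 ± 1.09 (95% interval -3.71 to 0.81). Soat1 stood at 9.50, 10.17 and 10.27 with DEHP 20, 9.76, 10.05 and 9.81 with DiNP 20, and 9.64, 9.56 and 9.53 with vehicle. Its differences were 0.41 ± 0.29 with DEHP 20 and 0.30 ± 0.29 with DiNP 20, and the DiNP 20 libraries all lay above vehicle, as for 2.97% of all tested genes. No other member was free of overlap at 3 months. The shares of all genes wholly above and wholly below vehicle were 3.09% and 2.5% for DEHP 20 and 2.81% and 2.46% for DEHP 200, with 3.09% wholly below for DiNP 20 and 2.77% wholly above for DiNP 100.

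Npc1, which releases cholesterol from late endosomes, stood lower in each treated mean at 3 months without passing. It stood at 7.13, 6.93 and 6.31 log2 CPM with DEHP 20, 7.07, 6.24 and 7.16 with DiNP 20, and 7.16, 7.35 and 7.10 with vehicle, with differences of -0.42 ± 0.31 and -0.38 ± 0.31. Its differences were -0.11 ± 0.31 with DEHP 200 and -0.29 ± 0.31 with DiNP 100. With DEHP 200 the smallest p fell to Abca1, at 8.06, 8.996 and 8.82 with DEHP 200 and 8.91, 7.99 and 7.80 with vehicle (0.39 ± 0.31). Scap, the escort of SREBP-2, stood at 8.90, 7.96 and 8.75 with DEHP 200 and 8.35, 8.69 and 9.03 with vehicle (-0.15 ± 0.28, and 0.14 without DEHP 200 replicate 2). Srebf2 with DiNP 20 differed from vehicle by 0.23 ± 0.19.

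Whether the compounds differ was asked at their shared dose of 20 ug/kg/day. The 2 phthalates differ in their alcohol side chains, a branched ethylhexyl group in DEHP and a mixture of longer branched chains in DiNP. The members' median difference, DEHP 20 minus DiNP 20, was -0.11 at 0 months and 0.20 at 3 months, and 0 of 28 members passed in limma at either time (0% of all genes). At unadjusted p under 0.05 there was 1 member at 0 months (2.05% of all genes) and 0 at 3 months (2.9%). That member was Npc1, at 6.91, 5.96 and 6.48 log2 CPM with DEHP 20 and 7.14, 6.84 and 7.31 with DiNP 20, where the difference was -0.65 ± 0.31 (95% interval -1.29 to -0.00, limma adjusted p = 1.00). For Srebf2 the difference was 0.03 at 0 months (95% interval -0.36 to 0.41) and -0.18 at 3 months (-0.57 to 0.20). For Sqle it was -0.24 (-1.46 to 0.98) and 0.04 (-1.18 to 1.26), and for Scarb1 -0.52 (-2.25 to 1.21) and -0.05 (-1.78 to 1.68), at 0 and 3 months in that order. All members overlapped between the compounds at both times, where 4.84% of all genes lay wholly higher and 4.72% wholly lower with DEHP 20 at 0 months, and 5.09% and 4.12% at 3 months. Intervals of this width do not show that the compounds act alike.

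Between doses of a compound, 0 of 28 members passed in limma (0% of all genes in each of 4 comparisons, and 0 members at unadjusted p under 0.05). Over all genes that unadjusted share was 3.95% for DEHP 200 against DEHP 20 and 0.583% for DiNP 100 against DiNP 20 at 0 months, and 0.957% and 12.2% at 3 months. DEHP 200 minus DEHP 20 had a median of -0.25 at 0 months, with 27 of 28 members lower, against 0.14 without DEHP 200 replicate 3 and 0.19 without DEHP 20 replicate 1. At 3 months it was -0.14. Srebf2 did not overlap between these doses at 0 months and was lower with DEHP 200, by -0.38 ± 0.19, as were 3.07% of all tested genes in that direction. No member lay wholly higher with DEHP 200 at 0 months (4.06% of all genes did). DiNP 100 minus DiNP 20 had medians of -0.12 at 0 months and 0.23 at 3 months. Npc1 at 0 months stood at 6.57, 6.66 and 6.25 log2 CPM with DiNP 100 and 7.14, 6.84 and 7.31 with DiNP 20, with no overlap, as for 1.82% of all tested genes, and a difference of -0.60 ± 0.31. None lay wholly higher with DiNP 100 there, against 2.1% of all genes. Abca1 at 3 months stood at 7.84, 8.42 and 7.24 with DiNP 100 and 8.49, 8.02 and 8.84 with DiNP 20, a difference of -0.61 ± 0.31 (95% interval -1.26 to 0.03, limma adjusted p = 0.42).

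**Figure D5:**
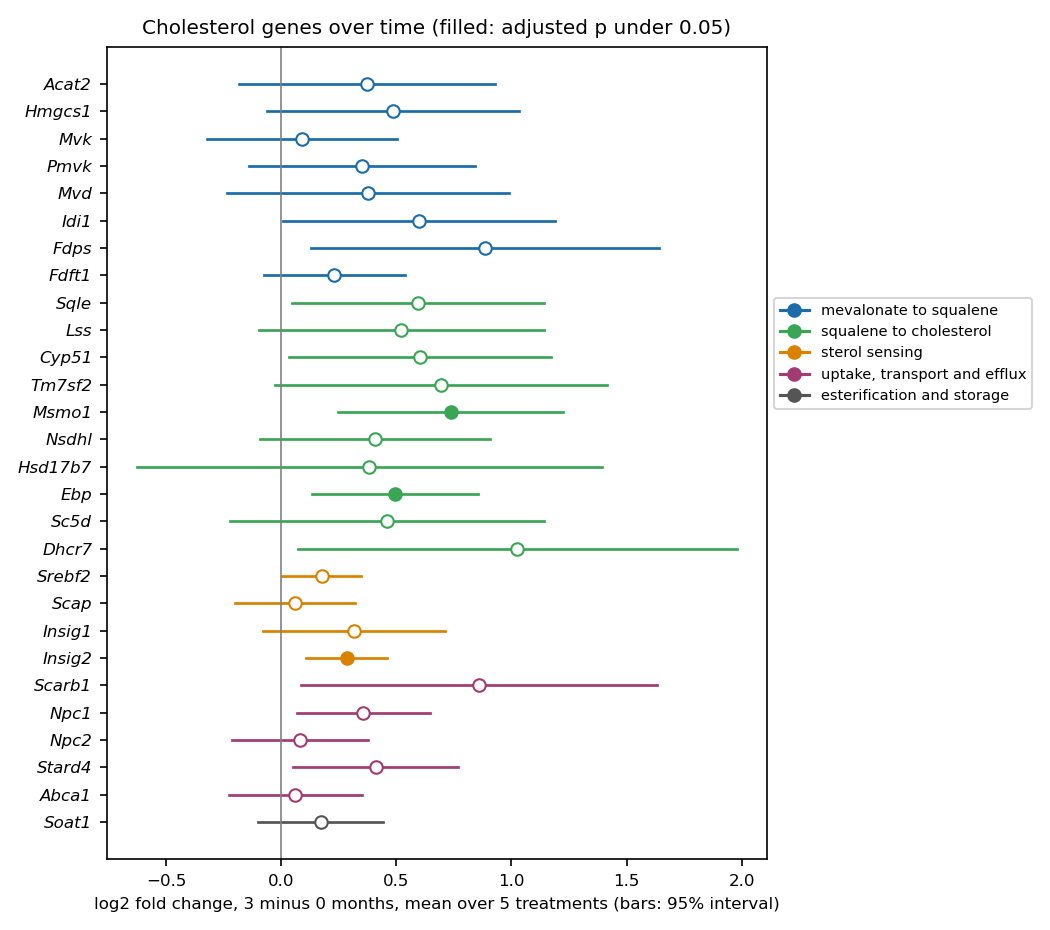
Points give the log2 fold change of each member, 3 minus 0 months, averaged over the 5 treatments (15 libraries each), bars its 95% interval, colours the role and filled points an adjusted p under 0.05. All 28 points lie above 0, and Insig2, Msmo1 and Ebp are filled.

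Apart from the fit with array weights, members passed only in the comparison of the times over all groups. Averaged over the 4 treatments and vehicle, 28 of 28 members were higher at 3 months than at 0 months, with a median log2 fold change of 0.40, where the median over all tested genes was 0.00. Because the members share most of their variation, these are not 28 separate observations. In limma 3 members passed an adjusted p of 0.05, all higher, which is 3 of 28 against 10.6% of all tested genes higher and 20.3% in either direction. At unadjusted p under 0.05 there were 12 of 28, against 35.1% of all genes in either direction and 18.6% higher. The share of members that passed is thus near the background. The mice were also older at the later time, and age and time since dosing cannot be told apart.

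Insig2 rose by 0.28 ± 0.08 (limma adjusted p = 0.0218). At 3 months its values were 5.25, 5.56 and 5.78 log2 CPM with DEHP 20, 5.73, 5.27 and 5.48 with DEHP 200, 5.68, 5.74 and 5.33 with DiNP 20, 5.72, 5.41 and 5.63 with DiNP 100, and 5.23, 5.53 and 5.88 with vehicle. At 0 months they were 5.39, 5.11 and 5.21 with DEHP 20 and 5.11, 5.62 and 4.84 with DEHP 200, and the DiNP and vehicle values are those given above. The 15 libraries of 3 months had a median of 5.56 log2 CPM and those of 0 months 5.26, with overlapping ranges.

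Msmo1 rose by 0.74 ± 0.24 (limma adjusted p = 0.0317). Its libraries stood at 7.82, 9.14 and 9.27 log2 CPM with DEHP 20 at 3 months, 9.24, 7.85 and 9.08 with DEHP 200, and 9.33, 8.95 and 8.07 with DiNP 20, beside the DiNP 100 and vehicle values above. At 0 months they stood at 8.84, 7.23 and 7.50 with DEHP 20, 7.68, 8.75 and 6.91 with DEHP 200, 8.18, 8.06 and 8.34 with DiNP 20, 7.66, 7.45 and 9.01 with DiNP 100, and 7.50, 7.81 and 8.24 with vehicle. Ebp, the sterol isomerase, rose by 0.50 ± 0.17 (limma adjusted p = 0.0466), with medians of 5.80 log2 CPM at 3 months and 5.18 at 0 months. Insig2 passed when any 1 of the 30 libraries was left out, whereas Msmo1 missed the threshold in 12 and Ebp in 21 of these 30 fits. The count of members that passed was 10 without DEHP 200 at 0 months replicate 2, 7 without DEHP 200 at 3 months replicate 2, and 5 without DEHP 20 replicate 1 at either time or DiNP 100 at 3 months replicate 2. It was 1 without any one of DEHP 20 replicates 2 or 3, DEHP 200 replicate 3, DiNP 100 replicates 1 or 2 or vehicle replicate 1 at 0 months, or of DEHP 20 replicate 2, DEHP 200 replicates 1 or 3, DiNP 20 replicate 1 or vehicle replicate 3 at 3 months.

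The largest differences belonged to members that did not pass. Dhcr7 differed by 1.03 ± 0.46 (adjusted p = 0.115), Fdps by 0.88 ± 0.37 (adjusted p = 0.0876) and Scarb1 by 0.86 ± 0.37 (adjusted p = 0.1035), all in limma. By role, the 10 enzymes from squalene on had a median of 0.56 and 2 passed, the 8 earlier enzymes had 0.37 and 0 passed, the 4 sensing genes had 0.23 and 1 passed, and the 5 transport genes had 0.36 and 0 passed. Abca1 at 0.06 ± 0.14, Scap at 0.06 ± 0.13 and Npc2 at 0.08 ± 0.14 were the nearest to 0. Among the earlier enzymes, the thiolase Acat2 stood at 0.37 ± 0.27, Hmgcs1 at 0.49 ± 0.26, Mvk at 0.09 ± 0.20, Pmvk at 0.35 ± 0.24, Mvd at 0.38 ± 0.30, the isomerase Idi1 at 0.60 ± 0.29 and Fdft1, the squalene synthase, at 0.23 ± 0.15. Further down the pathway, Sqle stood at 0.60 ± 0.26, the lanosterol synthase Lss at 0.52 ± 0.30, the lanosterol demethylase Cyp51 at 0.60 ± 0.28, the sterol reductase Tm7sf2 at 0.69 ± 0.35, the C4 decarboxylase Nsdhl at 0.41 ± 0.24, Hsd17b7 at 0.38 ± 0.49 and Sc5d at 0.46 ± 0.33. Outside synthesis, Srebf2 stood at 0.18 ± 0.08, Insig1 at 0.32 ± 0.19, Npc1 at 0.36 ± 0.14, the sterol carrier Stard4 at 0.41 ± 0.17 and Soat1 at 0.17 ± 0.13.

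In the single treatments, 18 members were higher at 3 months in all 5, against 16.3% of all tested genes. The members share most of their variation, so such counts are not of separate observations. The medians were 0.56 with DEHP 20, 0.70 with DEHP 200, 0.17 with DiNP 20, 0.40 with DiNP 100 and 0.21 with vehicle. The DEHP 200 median was 0.26 without replicate 3 at 0 months, the library that stood apart, and 1.20 without replicate 2 of that group. With 1 library left out, the medians ran from 0.20 to 1.08 for DEHP 20, from 0.26 to 1.20 for DEHP 200, from -0.10 to 0.36 for DiNP 20, from 0.12 to 0.96 for DiNP 100 and from -0.03 to 0.40 for vehicle. In vehicle alone 25 of 28 members were higher and 0 passed in limma (0 at unadjusted p under 0.05 too), where 0.00678% of all genes passed and 7.98% were under an unadjusted 0.05. Insig2 came closest there, at 0.39 ± 0.19 (limma adjusted p = 0.623). The time difference was also compared between each treatment and vehicle by an interaction term, and 0 of 28 members passed in limma for any treatment (0% of all genes each, with 0 members at unadjusted p under 0.05 against 1.96% of all genes for DEHP 20, 2.54% for DEHP 200, 1.49% for DiNP 20 and 2.33% for DiNP 100).

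Genes that use cholesterol were compared over the same interval. Of 11 genes from storage droplets to progesterone, 10 were higher at 3 months and 5 passed in limma, all higher, with a median of 0.43, against 10.6% of all genes that passed higher and 20.3% in either direction. Plin2, a lipid droplet coat protein, rose by 0.35 ± 0.08 (adjusted p = 0.00379), and Hsd3b1, which makes progesterone, rose by 0.67 ± 0.15 (adjusted p = 0.0053). Of 13 genes of the oxysterol receptor pathway and sterol export, 4 rose and 1 fell, with Osbp, a sterol carrier between membranes, up by 0.23 ± 0.05 (adjusted p = 0.00591). Of 12 genes of fatty acid synthesis 1 rose and 1 fell, a share near that of all genes, and the one that rose was Me1, which makes NADPH, by 0.71 ± 0.21 (limma adjusted p = 0.0221).

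Markers of ovarian cell types changed with time as well. For comparison, 10.6% of all tested genes passed higher and 9.63% lower, and 35.1% had an unadjusted p under 0.05 in limma. Of 9 luteal markers past the filter 7 were higher at 3 months and 2 passed in limma (median 0.67). The mean level over all 10 listed luteal markers ran from 7.65 to 9.60 log2 CPM at 3 months and from 4.96 to 9.63 at 0 months. Cyp11a1, Star and Hsd3b1 stand in this list and in that of cholesterol use. All 10 granulosa markers were lower and 9 passed (median -0.53, mean levels 7.09 to 8.02 at 3 months and 7.70 to 8.59 at 0 months). All 10 oocyte markers were lower and 9 passed (median -0.71, mean levels 3.44 to 4.78 and 4.22 to 5.42 in the same order of times). All 8 macrophage markers rose (median 0.67, mean levels 4.25 to 5.44 and 3.49 to 4.55). Of 6 theca markers 3 fell, of 4 smooth muscle markers 3 fell, and of 7 markers of the ovarian surface 1 rose. None of 5 adipocyte, 4 oviduct, 4 endothelial, 4 erythrocyte and 1 adrenal markers passed in limma (at unadjusted p under 0.05, 0, 1, 1, 0 and 1 of them). The part of these cell types in the members' time difference was not tested.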

How the data were processed

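RNA of whole, flash-frozen ovaries was sequenced as stranded poly(A) libraries with single reads on an Illumina HiSeq instrument, per the labels' protocols. The authors deposited 1 table of log2 CPM per gene and library. FastQC 0.11.8, Salmon 0.11.3, edgeR, R 3.5.2 and the build GRCm38.p6 are named in the submitters' processing notes, without their settings. The deposited log2 values were used as they stand. The counts behind them were not used here, so a count model was not fitted, and depth was approximated from the steps between low values.

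Genes with a mean above 0 log2 CPM were kept. All 30 libraries entered 1 linear model with a mean per group in limma 3.58.1 (R 4.3.3), with a trended prior and Benjamini-Hochberg adjustment over 14740 genes, and a gene passed under 0.05. The model was also run on simulated data whose noise was independent between genes. The members share most of their variation, so that run does not show how the model behaves on them. Fold changes are differences of mean log2 CPM. They were tested on residual degrees of freedom of 20 plus those of the prior, 2.85 at the median gene. Tables and figures were made with Python 3.11.15, pandas 2.3.3 and matplotlib 3.10.9. Exon lengths are of merged exons, and promoter windows are from RefSeq (GRCm38.p6).

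Values in every library are given for the members with the smallest p in each direction against vehicle, for the members with the smallest p over time, and for Srebf2, Insig1, Sqle and Scarb1. Dhcr7, for its lack of overlap, and Hsd17b7 with DEHP 200, for its size, were added after their values were seen. The rule did not cover comparisons between compounds or doses. There Npc1 and Abca1, and the lack of overlap of Srebf2 between doses, were picked out by their values. The members and the lists of pathway and marker genes were chosen with earlier results of these data known. Alternatives were other scalings, filters, a pseudocount, no trend, array weights, a replicate block, 1 time point alone and each library left out. A few genes of the pathway lists are not reported here.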

Additional observations from a re-analysis of the deposited data

How the results depend on the processing

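With array weights, 7 members passed with DEHP 20, 8 with DEHP 200 and 2 with DiNP 20 against vehicle at 3 months, 8 for any treatment at 3 months, 3 in vehicle over time and 15 over time in all groups, where 12.1%, 10.0%, 5.35%, 14.3%, 24.2% and 30.5% of all genes passed in the same order, and the median time by DEHP 20 interaction was 0.89. That fit stopped before its convergence tolerance and gave vehicle at 3 months replicate 2 a weight of 35.1. Leaving out 1 library put the count over time in all groups between 1 and 10, and leaving out both divergent DEHP 200 libraries of 0 months, chosen after seeing the data, gave 3. The sign turned for Sc5d with DEHP 20 at 0 months (-0.28 without DEHP 20 replicate 1, up to 1.15 without replicate 2), Mvk with DEHP 200 at 0 months (-0.016 with array weights, -0.17 without DEHP 200 replicate 2, up to 0.53 without replicate 3, -0.084 without both divergent libraries), Hsd17b7 with DiNP 20 at 0 months (0.41 without DiNP 20 replicate 2, down to -1.59 without replicate 3) and Scap with DEHP 200 at 3 months (0.0007 with array weights, 0.02 without vehicle replicate 3, 0.14 without DEHP 200 replicate 2, down to -0.33 without replicate 1). Of these members none had passed. The cause was not tested. Ebp missed the threshold after quantile normalization (limma adjusted p = 0.0541), with no trend (0.0512) and with the replicate block (0.0631).

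Replicate numbers did not pair the libraries: same-numbered pairs correlated at -0.45 to 0.39, and 8 of 30 libraries correlated best with their own number. With the replicate block, 2 members passed over time in all groups and 0 in each of the other 21 comparisons. With 3 libraries per group, standard errors ran from 0.19 (Srebf2) to 1.09 (Hsd17b7) on the log2 scale. Small differences from vehicle were not detectable, and large ones did not pass either where the standard error was wide. Hsd17b7 with DEHP 200 at 0 months, for example, differed by -1.66 without passing.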
